A study of Mus musculus with 2 samples.

Results

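The genes examined here are the members of a pair of chemokine axes, the ligands Cxcl9 and Cxcl10 with their receptor Cxcr3 and the ligand Cxcl16 with its receptor Cxcr6. They were selected by gene symbol, and all 5 were found among the 32285 features of both libraries. Tumours were J558 allografts, a mouse plasmacytoma line of B cell origin grown under the skin of female BALB/c mice. Mice were dosed by mouth for 6 days with vehicle (0.5% methylcellulose) or with TAK-931, an inhibitor of the replication kinase CDC7, at 60 mg/kg daily. A tumour of each group was dissociated and profiled by droplet 3′ single-cell RNA sequencing, so that the comparison rested on 1 vehicle library and 1 TAK-931 library. No effect of treatment can therefore be told apart from a difference between the animals or libraries, no p-value is given, and every interval (95%) covers counting error only. J558 is a single cell line, and dissociation recovers cell types unequally, which limits what the cell shares can represent.

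CXCL9 and CXCL10 are secreted chemokines, made chiefly in response to interferon-γ, that attract activated T cells and NK cells through CXCR3. CXCL16 is made as a membrane-anchored chemokine that also acts as a scavenger receptor, is released by the proteases ADAM10 and ADAM17, and engages CXCR6, a receptor of effector and tissue-resident T cells. In tumours, macrophages and dendritic cells are the sources of these ligands that are most often described, and plasmacytoid dendritic cells also carry CXCR3. Cxcl9 (chr5:92321347-92328079) and Cxcl10 (chr5:92346638-92348889) are neighbours on the minus strand of GRCm38, 18558 bases apart. Cxcl16 lies at chr11:70453983-70459984 on the minus strand, Cxcr3 at chrX:101731535-101734269 on the minus strand and Cxcr6 at chr9:123806475-123811760 on the plus strand, and all 5 are protein-coding genes whose identifiers matched those of the count tables.

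The 250 bases before the start of the neighbouring ligands Cxcl9 and Cxcl10 are shown because these genes were high in the same cell types. The sequences are those of RefSeq on GRCm38.p6, on the minus strand, at chr5:92348890-92349139 for Cxcl10 and chr5:92328080-92328329 for Cxcl9. Capitals mark matches to the motifs searched.
Cxcl10: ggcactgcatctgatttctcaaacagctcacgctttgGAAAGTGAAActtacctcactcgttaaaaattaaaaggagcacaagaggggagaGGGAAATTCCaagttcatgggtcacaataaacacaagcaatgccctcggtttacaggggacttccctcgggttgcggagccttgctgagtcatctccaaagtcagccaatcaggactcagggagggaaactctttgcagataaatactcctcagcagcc
Cxcl9: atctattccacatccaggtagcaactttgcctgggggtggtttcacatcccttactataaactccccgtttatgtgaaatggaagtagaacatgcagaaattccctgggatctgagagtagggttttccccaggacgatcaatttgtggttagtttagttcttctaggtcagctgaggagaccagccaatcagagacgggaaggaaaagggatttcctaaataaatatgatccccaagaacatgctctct
The Cxcl10 window held GAAAGTGAAA, a match to the interferon-stimulated response element pattern (GAAA and GAAA with any 2 bases between), at 213 to 204 bases before the start, and GGGAAATTCC, a match to the NF-kB pattern (GGGA and TCC with any 3 bases between), at 159 to 150 bases. On both strands, the first pattern occurred in 2.98% and the second in 3.86% of 32851 windows of this length. The interferon-γ activated site pattern TTCNNNGAA (7.02% of windows) and the T-box pattern GGTGTGA (3.33%) were also searched, the former reading the same on both strands. None of these letters were in the windows of Cxcl9, Cxcr3 or Cxcr6, which says nothing about the binding of a factor. A window was found for 4 of the 5 genes, Cxcl16 being the one not matched.

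UMIs (unique molecular identifiers, each counted as 1 transcript) totalled 144767193 over 4565 barcodes in vehicle and 77369283 over 6558 barcodes in TAK-931. Of these, 3441 and 3488 cells passed the study's limits on genes and mitochondrial share, with median depths of 40504 and 15097 UMIs per cell, and 8 barcodes occurred in both libraries. Cell type names stand for cells that passed marker gates. The libraries differed most in composition, with 2957 vehicle and 97 TAK-931 J558 cells, 228 and 2073 monocyte/macrophage cells, 78 and 154 endothelial cells, 17 and 43 fibroblasts, 12 and 21 mural cells, and 13 and 624 T cells. Median depths within types lay closer, at 10361.5 and 14586 UMIs in monocyte/macrophage cells and 16138.5 and 13304.5 in endothelial cells. J558 cells carried a median of 4 of their 6 markers, with Trap1a at 1458 and 1895 CPM (UMIs of the gene per 1000000 UMIs), whereas no mature dendritic cell had a UMI of the marker Apol7c.

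Summed over all cells kept, transcripts of the 5 genes were far more abundant in the TAK-931 library. Cxcl9 was at 16.0 CPM (2258 UMIs) in vehicle and 495 CPM (34275 UMIs) in TAK-931, a 30.9-fold difference. Cxcl10 went from 6.74 CPM to 244 CPM (36.2-fold) and Cxcl16 from 14.0 CPM to 299 CPM (21.3-fold). Cxcr3 was at 0.121 CPM in vehicle, from 17 UMIs, and at 10.1 CPM in TAK-931 (83.8-fold), and Cxcr6 was at 0.305 CPM, from 43 UMIs, and at 51.6 CPM (169-fold). At least 2-fold higher levels were seen for 37.3% of all 18139 genes with 10 or more UMIs, and for 18.8% the level was at least 2-fold lower. J558 cells held 92.9% of the vehicle UMIs, and monocyte/macrophage cells held 49.3% of the TAK-931 UMIs and 2.03% of those of vehicle. When the vehicle levels within types were combined with the TAK-931 composition, composition alone gave a 14.8-fold difference for Cxcl9, 10.3-fold for Cxcl10 and 21.4-fold for Cxcl16. What this left was 2.08-fold for Cxcl9, 3.52-fold for Cxcl10 and 0.99-fold for Cxcl16. Only J558, endothelial, fibroblast, monocyte/macrophage and mural cells were held apart, and all other cells entered as a pool at its vehicle level. That pool was mostly mixed and unassigned cells in vehicle and mostly T and mixed cells in TAK-931. The remainder is therefore not purely a difference within types. The same split was not informative for the receptors, since fewer than 10 vehicle cells of each T cell class were kept.

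**Figure D1:**
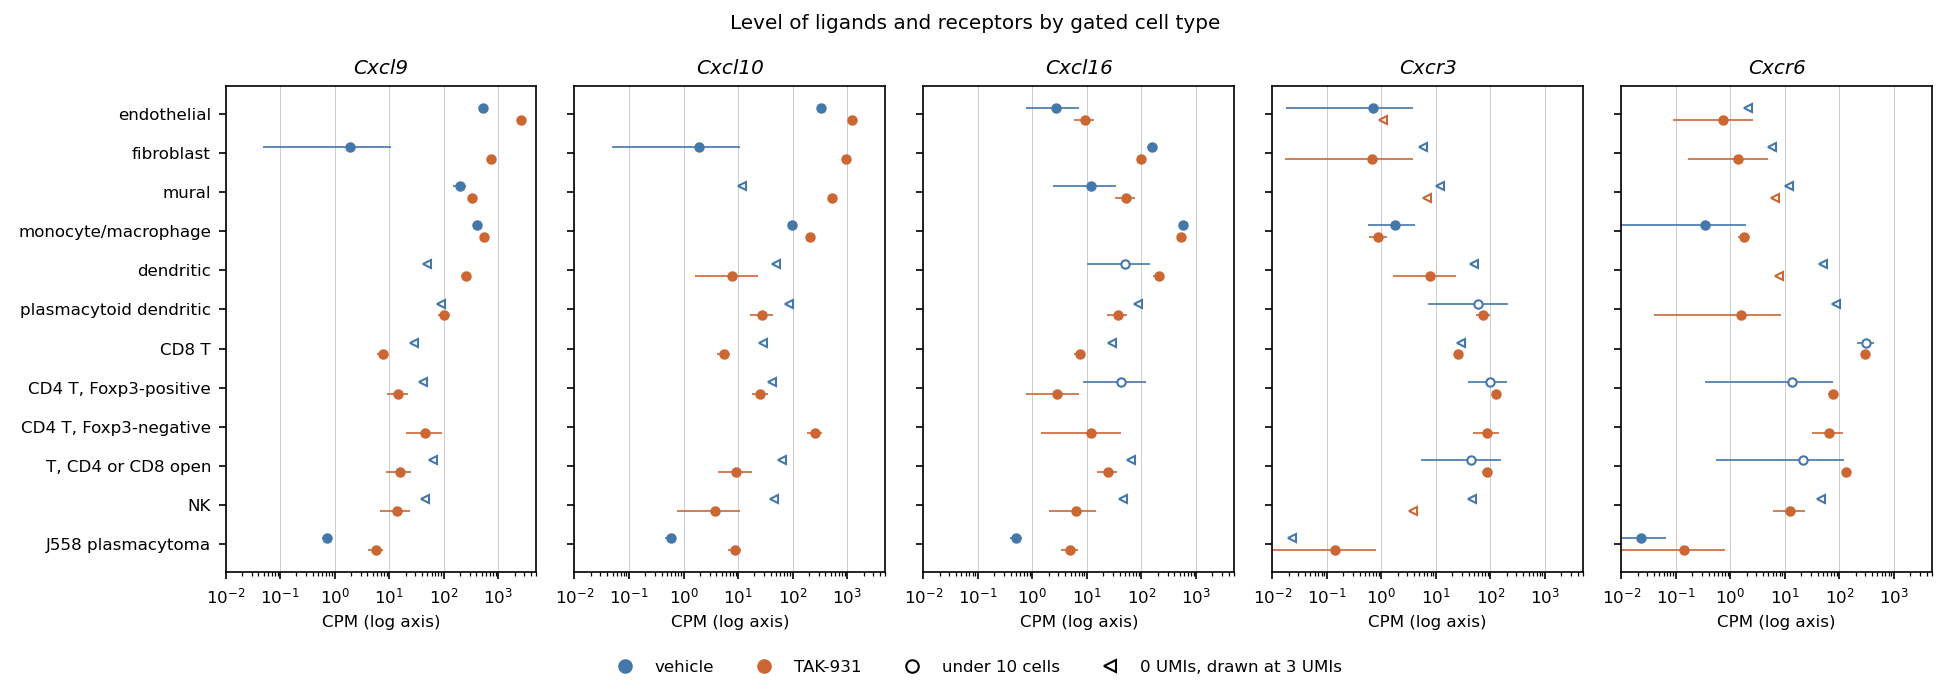
Level of each gene in each gated cell type, as CPM on a log axis, with exact Poisson 95% intervals from counting, for the vehicle library (blue) and the TAK-931 library (orange). Open circles are types with under 10 cells and open triangles are types with 0 UMIs, drawn at the level of 3 UMIs. Among types of 10 or more cells in TAK-931, endothelial cells had the highest Cxcl9 and Cxcl10 levels (2576 and 1223 CPM), monocyte/macrophage cells led Cxcl16 (533 CPM), and CD8 T cells led Cxcr6 (293 CPM).

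Endothelial cells had the highest Cxcl9 and Cxcl10 levels among types of 10 or more cells in both libraries, and the difference between the libraries was also large there. Endothelial Cxcl9 was at 535 CPM in vehicle (775 UMIs) and at 2576 CPM in TAK-931 (7120 UMIs). This is a 4.82-fold difference, or 2.27 on the log2 scale (2.16 to 2.38). Endothelial Cxcl10 was at 336 CPM in vehicle (487 UMIs) and 1223 CPM in TAK-931 (3381 UMIs), 3.64-fold or 1.86 on the log2 scale (1.73 to 2.00). The median gene with 50 or more UMIs in both libraries was at -0.26 on the log2 scale in endothelial cells, and relative to it the values were 2.52 for Cxcl9 and 2.12 for Cxcl10. Of the 3 members with enough UMIs here, all 3 were at least 2-fold higher, beside 8.92% of all 10952 genes counted in endothelial cells that were higher and 10.3% that were lower. These were 977 and 1131 genes, or 1397 and 725 when taken relative to the median gene. The third was Cxcl16, at 2.76 CPM (4 UMIs) and 9.04 CPM (25 UMIs), a low level that is set beside the free RNA estimate with the other Cxcl16 values. Its log2 ratio of 1.71 fell to 0.83, under 2-fold, with free RNA subtracted and was 5.00 when cells were assigned by cluster.

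The endothelial difference lay in the number of positive cells as well as in the total. With each cell thinned to 4000 UMIs, a Cxcl9 UMI was left in 25.6% of endothelial cells in vehicle and 88.3% in TAK-931, a difference of 62.7 percentage points (50.4 to 72.0). For Cxcl10 the shares were 23.1% and 56.5%, a difference of 33.4 points (20.3 to 44.4). Without thinning the Cxcl9 shares were 46.2% and 98.1%. For comparison, thinned shares in J558 cells, with median depths of 42413 and 72057 UMIs, were 0.10% and 3.09% for Cxcl9 and 0.10% and 5.15% for Cxcl10. These rest on 3 to 5 positive cells in 1 random draw, and the shares expected over all draws were 0.116% and 2.02% for Cxcl9 and 0.198% and 2.58% for Cxcl10. Expression was concentrated in few cells in vehicle, where 1 cell held 24.4% of the endothelial Cxcl9 UMIs and the top 10% of cells 81.8%, against 5.73% and 49.1% in TAK-931. In an unsupervised clustering the endothelial cells of the libraries fell apart, with 73 of 78 vehicle cells in cluster 15 and 153 of 154 TAK-931 cells in cluster 8, so that the values compare different clusters of endothelial cells. In cluster 8 the 5 vehicle cells had 211 CPM of Cxcl9, with all 10 UMIs in 1 cell, and no Cxcl10 UMI. The leukocyte marker Ptprc was at 0 and 19.9 CPM and C1qa at 1.38 and 25.0 CPM in endothelial cells of vehicle and TAK-931. In endothelial cells with no UMI of the C1q genes or Ptprc, the log2 ratios were 2.75 for Cxcl9 and 2.06 for Cxcl10.

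Fibroblasts almost lacked these ligands in vehicle and carried them in TAK-931. Cxcl9 gave 1 UMI in the 17 vehicle fibroblasts (1.959 CPM) and 1088 UMIs in the 43 TAK-931 fibroblasts (746 CPM), a log2 ratio of 8.57 with a wide interval of 6.09 to 13.88. Cxcl10 likewise gave 1 UMI in vehicle and 1386 UMIs (951 CPM) in TAK-931, a log2 ratio of 8.92 (6.44 to 14.23). Thinned shares were 5.88% (1 cell, 1.03% expected over draws) and 62.8% of fibroblasts for Cxcl9, and 0 and 67.4% for Cxcl10 (in 0 of 17 cells 3 counts would be 17.6%, and the exact upper limit for cells with a UMI is 19.5%), and no TAK-931 cell held more than 13.8% of the UMIs of either gene. The vehicle groups are small here, and 12.1% of all 9536 genes counted in fibroblasts were at least 2-fold higher and 13.7% lower, against 2 of 3 members higher and 0 lower. Relative to the median gene, at -0.33 on the log2 scale, the ratios were 8.90 for Cxcl9 and 9.25 for Cxcl10, and 1756 genes were then higher and 728 lower, against 1155 and 1310.

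Mural cells, the pericytes and smooth muscle cells around vessels, showed the same for Cxcl10 and less clearly for Cxcl9. Cxcl10 had 0 UMIs in 12 vehicle mural cells and 231 UMIs (519 CPM) in 21 TAK-931 mural cells, at least 44.01-fold higher when the vehicle count is set to 3 UMIs. Cxcl9 was at 196 CPM (50 UMIs) and 337 CPM (150 UMIs), 0.78 on the log2 scale (0.31 to 1.27), but 42 of the 50 vehicle UMIs came from 1 cell. Without that cell and the top cell of TAK-931 the Cxcl9 ratio was 2.88. Of the 3 members counted in mural cells 2 were at least 2-fold higher, beside 19.7% of 6655 genes higher and 7.96% lower. Relative to the median gene of mural cells, at -0.17, Cxcl9 was at 0.94.

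**Figure D2:**
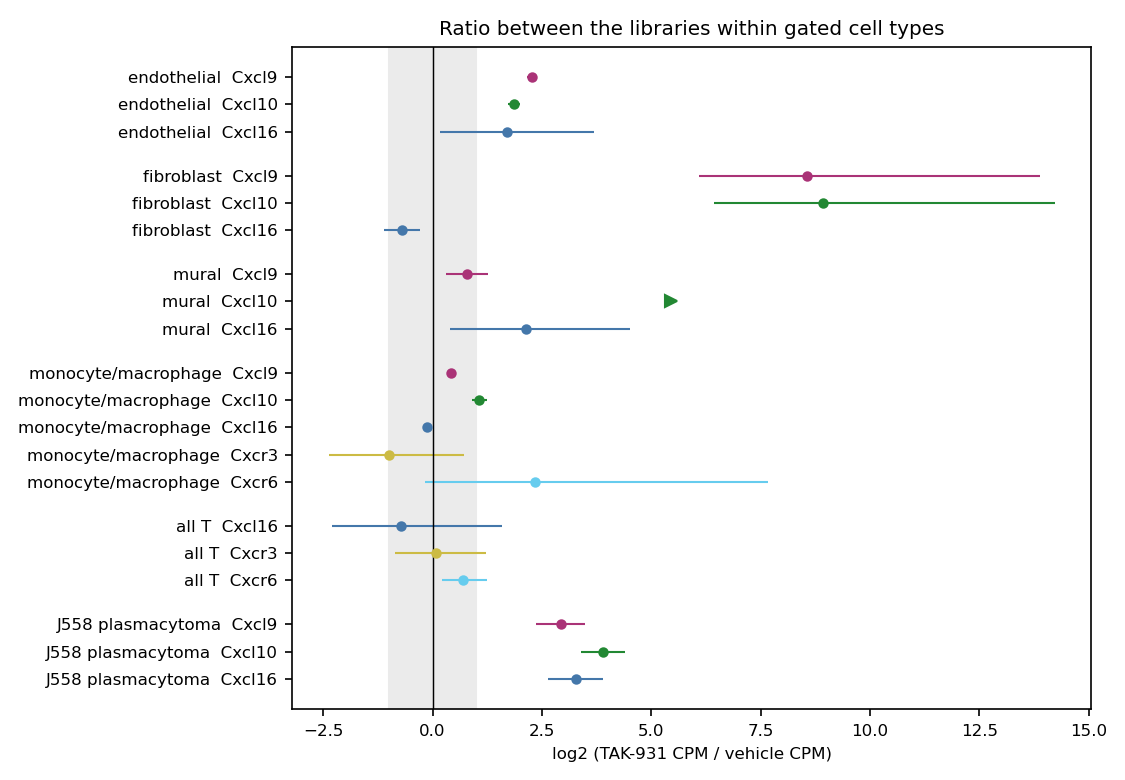
Ratio of TAK-931 to vehicle CPM within each gated type on a log2 scale, for members with 10 or more UMIs in both sums together, with 95% intervals from counting (conditional binomial). The grey band spans a 2-fold difference in either direction and the triangle is a lower bound, drawn where vehicle had 0 UMIs. Cxcl9 and Cxcl10 lay right of the band in endothelial cells (2.27 and 1.86) and fibroblasts (8.57 and 8.92), while Cxcl16 in monocyte/macrophage cells (-0.12) and Cxcr3 in T cells (0.09) lay inside it.

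Monocyte/macrophage cells differed less per cell, although their number differed most among the ligand-bearing types. Their Cxcl9 was at 414 CPM in vehicle (1187 UMIs) and 556 CPM in TAK-931 (19016 UMIs), a log2 ratio of 0.42 (0.34 to 0.51). Their Cxcl10 was at 98.4 CPM (282 UMIs) and 206 CPM (7045 UMIs), a log2 ratio of 1.07 (0.89 to 1.24). A single vehicle cell held 71 of the 282 Cxcl10 UMIs, and without the top cell of each library the ratio was 1.42. Thinned shares of positive cells were 24.6% and 45.4% for Cxcl9, a difference of 20.8 points (14.5 to 26.4), and 10.5% and 23.2% for Cxcl10, a difference of 12.7 points (7.69 to 16.5). Here 2 of 5 members were at least 2-fold higher, Cxcl10 and a sparse Cxcr6 (1 and 61 UMIs, 13 of the latter in 1 cell, or 1.78 CPM beside the 1.48 CPM estimated for free RNA), beside 7.83% of 13547 genes higher and 8.77% lower. The Cxcl10 ratio was close to the 2-fold line and fell below it, to between 0.94 and 0.96, when the gates asked for 2 UMIs per 10000, for 2 positive markers, or were replaced by clusters.

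Monocyte/macrophage cells ranged from monocyte-like cells to C1q-rich macrophages, and the ligands were distributed unevenly among them. Cells were split at 10 C1q UMIs (C1qa, C1qb and C1qc) per 10000, which gave 128 C1q-high and 100 C1q-low cells in vehicle and 1201 and 872 in TAK-931. C1q-low TAK-931 cells carried the monocyte gene Ly6c2 at 1357 CPM, against 426 CPM in C1q-high cells. Cxcl9 was higher in C1q-low cells of both libraries, at 612 and 326 CPM in vehicle (low and high) and 786 and 439 CPM in TAK-931. Its log2 ratio between libraries was similar in both classes, 0.43 in C1q-high and 0.36 in C1q-low cells. Cxcl10 behaved otherwise, going from 75.3 to 304 CPM in C1q-low cells (2.01, 1.66 to 2.38) and from 109 to 156 CPM in C1q-high cells (0.52, 0.32 to 0.73). C1q-high over C1q-low Cxcl10 was therefore at 1.45-fold in vehicle (71 of its 215 C1q-high UMIs in 1 cell) and at 0.51-fold in TAK-931. Without the top cell of each class these were 1.19-fold and 0.50-fold, and the log2 ratios between the libraries were 0.98 in C1q-high and 2.24 in C1q-low cells. Among the larger clusters of these cells, Cxcl10 was at 61.5 CPM in 82 vehicle cells and 364 CPM in 662 TAK-931 cells of cluster 3, which also had the highest Cxcl9 (846 and 1074 CPM). In cluster 1, with 70 and 883 cells, Cxcl10 was at 181 CPM and 108 CPM, but 71 of the 156 vehicle UMIs were in 1 cell, so no direction was read from it. Cxcl16 was the reverse of Cxcl9 in its distribution, higher in C1q-high cells of both libraries (642 and 591 CPM) than in C1q-low cells (440 and 418 CPM). Ly6c2 itself was at 408 CPM in vehicle and 1357 CPM in TAK-931 in C1q-low cells, and at 35.4 and 426 CPM in C1q-high cells, and its part in the Cxcl10 values was not tested.

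**Figure D3:**
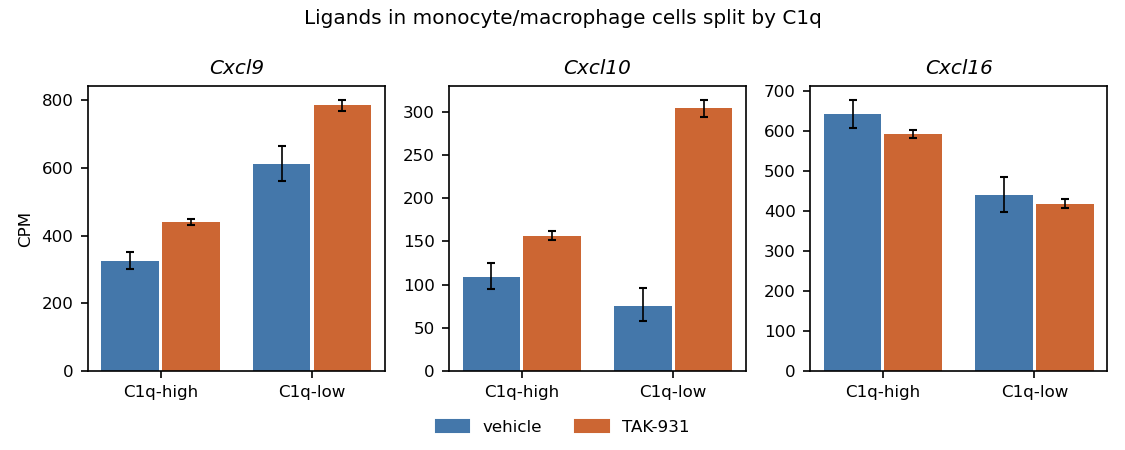
Ligand levels (CPM, linear axis from 0) in monocyte/macrophage cells with C1q at 10 or more (C1q-high) or under 10 (C1q-low) UMIs per 10000, in vehicle (blue) and TAK-931 (orange), with exact Poisson 95% intervals from counting. The tallest Cxcl10 bar is that of C1q-low TAK-931 cells at 304 CPM, about 4.04 times the 75.3 CPM of C1q-low vehicle cells, while the Cxcl16 bars of the libraries lay within 0.92-fold to 0.95-fold of each other.

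Cxcl16 followed another pattern, with a level in its main source that differed little. In monocyte/macrophage cells it was at 579 CPM in vehicle (1658 UMIs) and 533 CPM in TAK-931 (18219 UMIs), a log2 ratio of -0.12 (-0.19 to -0.05). Relative to the median gene of these cells, at -0.10, this ratio was -0.02. Its thinned share was 80.3% and 73.1% of cells, and 1 cell held at most 1.69% of its UMIs, so Cxcl16 was spread far more evenly than Cxcl9. Fibroblasts had 157 CPM (80 UMIs) in vehicle and 96.7 CPM (141 UMIs) in TAK-931, a log2 ratio of -0.70 (-1.10 to -0.28). This direction did not hold when cells were assigned by cluster, which gave 0.87. The 7 mature dendritic cells of TAK-931, which all carried Cxcl16, had 1976 CPM, 3.71-fold above monocyte/macrophage cells (3.20 to 4.27), whereas the 3 of vehicle had 19 UMIs, 0.82-fold (0.49 to 1.28). Other dendritic cells were at 209 CPM in TAK-931. Cxcl9 had 0 UMIs in the 7 mature dendritic cells of TAK-931. The 3 of vehicle had 61 Cxcl9 UMIs (1522 CPM), 56 of them in 1 cell.

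Endothelial cells, the strongest carriers of Cxcl9 and Cxcl10, had hardly any Cxcl16. In TAK-931 their Cxcl16 was 58.9-fold below that of monocyte/macrophage cells (39.9 to 91.1), at 9.04 CPM. From the UMIs of genes foreign to each type, 1.46% of the UMIs of TAK-931 endothelial cells were estimated to be free RNA, which would give 4.11 CPM of Cxcl16, 3.68 CPM of Cxcl10 and 7.26 CPM of Cxcl9. The endothelial Cxcl9 and Cxcl10 levels thus stood far above free RNA. That of Cxcl16 (5.85 to 13.4 CPM) was also above the estimate, but by few UMIs. The thinned share of Cxcl16 was 2.56% of vehicle and 1.30% of TAK-931 endothelial cells, 2 cells each in 1 draw, and the shares expected over draws were 1.61% and 3.27%. Mural Cxcl16 was at 11.8 CPM (3 UMIs) and 51.7 CPM (23 UMIs), with a log2 ratio of 2.13 (0.40 to 4.51).

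J558 tumour cells had little of any member. Cxcl9 was at 0.74 CPM in vehicle and 5.70 CPM in TAK-931, Cxcl10 at 0.58 and 8.69 CPM, and Cxcl16 at 0.50 and 4.84 CPM. All 3 were thereby at least 2-fold higher, beside 9.59% of 14610 genes higher and 4.85% lower. The free RNA estimated for TAK-931 J558 cells would give 7.68 CPM of Cxcl9, 3.90 CPM of Cxcl10 and 4.35 CPM of Cxcl16, so the Cxcl9 level was below and the Cxcl16 level near the background. The Cxcl10 level (6.64 to 11.2 CPM) was above it, with 26 of its 61 UMIs in 1 cell. In vehicle, 68 of the 97 Cxcl9 UMIs of J558 cells came from 1 cell. Receptor transcripts were at 0 to 3 UMIs in J558 cells of each library.

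The order of types in TAK-931, among those of 10 or more cells, separated the sources of the ligands. For Cxcl9, endothelial cells stood 3.45-fold (3.24 to 3.68) above fibroblasts, which stood 1.34-fold above monocyte/macrophage cells, followed by mural cells (337 CPM), dendritic cells (254 CPM) and plasmacytoid dendritic cells (102 CPM). Each of these neighbours differed beyond its counting interval, but 51 of the 97 UMIs of dendritic cells and 38 of the 66 of plasmacytoid dendritic cells came from 1 cell each. For Cxcl10, endothelial cells stood 1.29-fold (1.21 to 1.37) above fibroblasts and fibroblasts 1.83-fold above mural cells. Foxp3-negative CD4 T cells (255 CPM, 15 cells) and monocyte/macrophage cells (206 CPM) came next and did not differ from each other beyond counting error, and 18 of the 44 UMIs of the former were in 1 cell. For Cxcl16, the order was monocyte/macrophage, dendritic cells and fibroblasts, with mural and plasmacytoid dendritic cells (37.1 CPM) next and not distinguishable. In vehicle, endothelial Cxcl9 was 1.29-fold above the monocyte/macrophage level (1.18 to 1.41) and Cxcl10 3.41-fold, against 4.63-fold (4.51 to 4.76) and 5.94-fold in TAK-931.

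Because levels and cell numbers differ, the share of transcripts that a type held was not in the order of its level. Monocyte/macrophage cells held 55.5% of the Cxcl9 UMIs of TAK-931 and endothelial cells 20.8%, although the latter held only 3.99% of all UMIs. For Cxcl10 the shares were 41.7% and 20.03%, with 8.21% in fibroblasts. For Cxcl16 monocyte/macrophage cells held 88.1%. In vehicle, endothelial cells held 34.3% of Cxcl9 and 51.3% of Cxcl10, and monocyte/macrophage cells 52.6% of Cxcl9, 29.7% of Cxcl10 and 83.7% of Cxcl16. Cells with markers of more than 1 compartment, which were assigned to no type, held 16.1% of Cxcl9 and 22.8% of Cxcl10 in TAK-931.

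**Figure D4:**
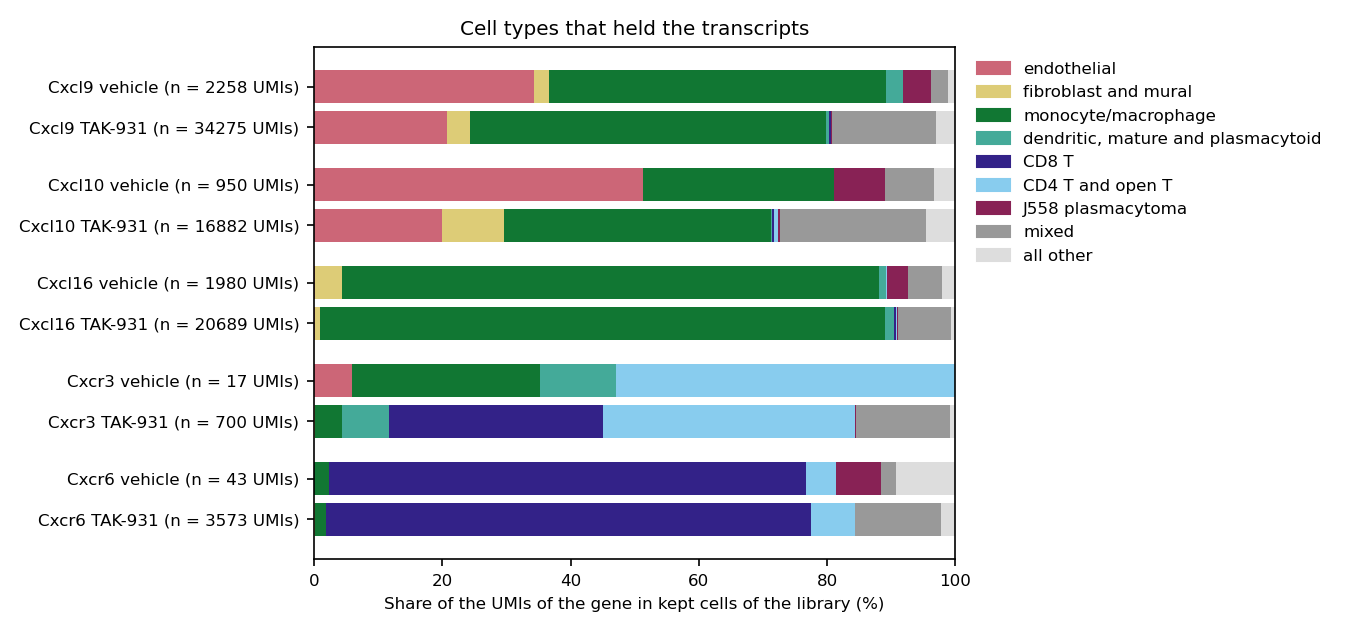
Share (%) of the UMIs of each gene that each group of gated types held, in kept cells of each library, with the number of UMIs of the gene beside its bar. In TAK-931 monocyte/macrophage cells held 88.1% of Cxcl16 and CD8 T cells 75.6% of Cxcr6, while Cxcl9 and Cxcl10 were divided among monocyte/macrophage, endothelial and stromal cells. The vehicle bars of the receptors rest on 17 and 43 UMIs.

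Cxcr6 was a transcript of CD8 T cells. In TAK-931 the 475 CD8 T cells had 293 CPM (2701 UMIs), 3.84-fold (3.17 to 4.69) above the 82 Foxp3-positive CD4 T cells, the regulatory T cells, and 23.5-fold (12.8 to 49.1) above the 53 NK cells at 12.5 CPM. Unassigned T cells, with UMIs of both the CD4 and CD8 genes or of neither, were at 134 CPM. Foxp3-positive CD4 T cells were at 76.5 CPM and Foxp3-negative ones at 63.9 CPM, which did not differ beyond counting error. The thinned share was 58.7% of CD8 T cells (54.2 to 63.2) and 18.3% of Foxp3-positive CD4 T cells, against 5.66% of NK cells (3.84% expected over draws). It was 0 of 154 endothelial cells, where 3 counts would be a share of 1.95% of cells with a UMI (exact upper limit 2.37%), and 0 of 97 J558 cells, where they would be 3.09% (3.73%). Without thinning 2 endothelial cells and 1 J558 cell had a UMI. Without thinning it was 80% of CD8 T cells. All 7 CD8 T cells of vehicle carried Cxcr6 as well, with 32 UMIs (312 CPM), which held 74.4% of the Cxcr6 UMIs of that library. CD8 T cells of TAK-931 held 75.6%, and all T cells 82.6%.

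Cxcr3 was distributed the other way among T cells. Foxp3-positive CD4 T cells of TAK-931 were highest among the cells kept, at 124 CPM (177 UMIs), 4.91-fold (4.01 to 5.99) above CD8 T cells at 25.3 CPM (233 UMIs). Unassigned T cells (87.2 CPM), Foxp3-negative CD4 T cells (87.1 CPM) and plasmacytoid dendritic cells (74.1 CPM) lay between and could not be ordered among themselves. Plasmacytoid dendritic cells were 2.93-fold (2.10 to 4.01) above CD8 T cells. With barcodes of over 500 genes added the order of the CD4 T cells turned, with Foxp3-negative ones at 166 CPM (61 UMIs) and Foxp3-positive ones at 123 CPM (185 UMIs), both still above CD8 T cells. Thinned shares of the cells kept were 36.5% of unassigned T cells, 33.3% of Foxp3-negative and 31.7% of Foxp3-positive CD4 T cells (27.4%, 25.7% and 35.6% expected over draws), which overlapped in their intervals, 10.9% of CD8 T cells and 18.2% of plasmacytoid dendritic cells. NK cells, which are known to be able to carry the receptor, had 0 Cxcr3 UMIs in 53 cells, thinned or not, where 3 UMIs would be 3.74 CPM and the exact upper limit is 4.605 CPM. All 3 Foxp3-positive CD4 T cells of vehicle had Cxcr3, with 7 UMIs. Of the 700 Cxcr3 UMIs of TAK-931, CD8 T cells held 33.3%, Foxp3-positive CD4 T cells 25.3% and plasmacytoid dendritic cells 6.86%.

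Neither receptor differed at least 2-fold per T cell between the libraries. Over all T cells, Cxcr3 was at 40.6 CPM (9 UMIs) in vehicle and 43.3 CPM (509 UMIs) in TAK-931, a log2 ratio of 0.09 (-0.85 to 1.23). Cxcr6 was at 154 CPM (34 UMIs) and 251 CPM (2950 UMIs), a log2 ratio of 0.71 (0.22 to 1.24). No member of 5 was called in either direction, beside 8.03% of 11578 genes higher and 9.41% lower. For Cxcl9 and Cxcl10 this does not show a lack of difference, because neither had a UMI in vehicle T cells. The floor set for such a count was 13.5 CPM there, above their TAK-931 levels of 9.77 and 11.8 CPM, so no ratio could be formed. Relative to the median gene of T cells, at -0.16, the ratios were 0.24 for Cxcr3 and 0.86 for Cxcr6, and 1179 genes were then higher and 864 lower, against 930 and 1089. With 13 vehicle T cells of mixed classes, the intervals of both Cxcr3 and Cxcr6 include a 2-fold difference. The composition of T cells also differed, with 7 of 13 CD8 T cells in vehicle and 475 of 624 in TAK-931. When barcodes with over 500 genes were used, 20 vehicle and 647 TAK-931 CD8 T cells gave Cxcr6 at 329 and 289 CPM, a log2 ratio of -0.19 (-0.59 to 0.24). Cxcr3 in the same cells was at 6.45 CPM (1 UMI) and 26.7 CPM (266 UMIs), 2.05 (-0.44 to 7.36), an interval that includes no difference. With these barcodes Cxcr6 in Foxp3-positive CD4 T cells was at 12.2 CPM in vehicle (1 UMI, 5 cells) and 73.6 CPM in TAK-931 (111 UMIs, 101 cells). That log2 ratio of 2.60 (0.09 to 7.91) was over 2-fold but rests on 1 vehicle UMI.

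Within the CD8 T cells of TAK-931, Cxcr6 was more frequent and Cxcr3 less frequent in cells with Gzmb. Cells with a UMI of Gzmb, which encodes the cytotoxic protease granzyme B, had Cxcr6 in 67.5% and cells without it in 45.2%, a difference of 22.3 points (13.2 to 31.0). For Cxcr3 the shares were 7.27% and 16.7%, a difference of -9.40 points (-15.9 to -3.51). Cells with the checkpoint receptor gene Pdcd1 had Cxcr6 in 62.8% against 51.2% without it, while Cxcr3 (10.0% and 12.7%) did not differ beyond the counting interval. Cells with and without the proliferation gene Mki67 had Cxcr6 in 58.8% and 58.7%, but at the lower level of 283 CPM (242 to 328) with it and 384 CPM (351 to 420) without. Their Cxcr3 was in 7.19% and 12.7% of cells, a difference of -5.54 points (-10.7 to 0.59), and at 18.0 and 41.1 CPM (11 and 53 UMIs). Cxcr3 was present in 8.96% of cells with Cxcr6 and 13.8% of cells without, a difference of -4.81 points (-11.0 to 0.89) that did not pass the counting interval. All these shares and CPM were taken at 4000 UMIs per cell within 1 library, so that cells are not replicates of a condition. Every cell has the same weight in the thinned CPM, which are not on the scale of the 293 CPM from summed counts.

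**Figure D5:**
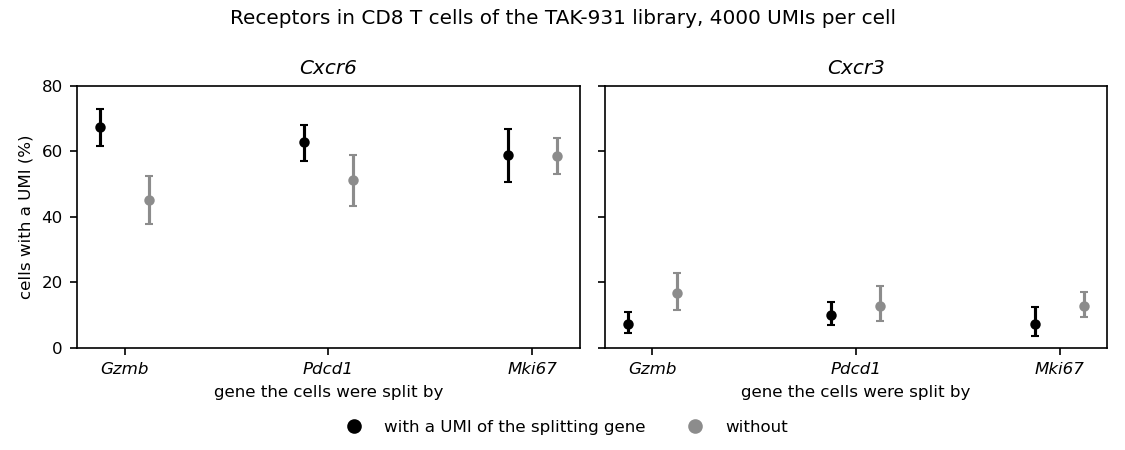
Share (%) of CD8 T cells of the TAK-931 library with a UMI of Cxcr6 (left) or Cxcr3 (right) after thinning to 4000 UMIs per cell, for cells with (black) and without (grey) a UMI of the gene named on the x axis, with exact binomial 95% intervals. Cxcr6 was seen in 67.5% of cells with Gzmb and 45.2% without, and Cxcr3 in 7.27% and 16.7%.

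Cxcl9 and Cxcl10 tended to occur in the same cells among monocyte/macrophage cells of both libraries and endothelial cells of TAK-931. In monocyte/macrophage cells of TAK-931, at 4000 UMIs per cell, Cxcl10 was found in 35.9% of 941 cells with Cxcl9 and 12.6% of 1132 cells without, and in vehicle in 19.6% and 7.56%. Among endothelial cells of TAK-931 it was found in 61.0% of 136 cells with Cxcl9 and 22.2% of 18 without. In vehicle endothelial cells the shares were 30.0% of 20 and 20.7% of 58, a difference of 9.31 points (-10.3 to 32.8) within counting error. Irf1, an interferon-induced transcription factor gene, was found in 64.0% and 16.7% of the same TAK-931 endothelial cells, and in 30.0% and 25.9% of those of vehicle. In TAK-931 monocyte/macrophage cells it was found in 44.2% and 43.1% of those with and without Cxcl9, a difference of 1.10 points (-3.18 to 5.38), and in 53.0% and 40.8% of those with and without Cxcl10. Cxcl16 was found in 76.5% and 70.2% of monocyte/macrophage cells with and without Cxcl9, a difference of 6.28 points (2.46 to 10.1), and in 72.3% and 73.3% of those with and without Cxcl10, -0.95 points (-5.62 to 3.46).

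Of 15 genes that act before or after these chemokines, 14 were among the features. Irf1 was the gene of the list most often called, at least 2-fold higher in endothelial, fibroblast, mural and monocyte/macrophage cells. Irf1 was at 89.0 and 348 CPM in endothelial cells (log2 ratio 1.97), 50.9 and 423 CPM in fibroblasts (3.05), and 64.9 and 198 CPM in monocyte/macrophage cells (1.61). In J558 cells it was at 11.7 and 14.95 CPM (0.35), within 2-fold.

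The upstream cytokine gene Ifng was found in T cells, at 18.1 CPM in vehicle (4 UMIs) and 77.7 CPM in TAK-931 (914 UMIs), a log2 ratio of 2.10 (0.74 to 3.98). It was the only gene of the list called in T cells, where 13 were counted, beside the 8.03% of all genes that were higher. In endothelial cells 3 of 11 were higher, namely Irf1, the interferon-γ receptor gene Ifngr1 (90.4 and 188 CPM, 1.06) and the T cell and NK cell growth factor gene Il15 (8.97 and 38.3 CPM, 2.10), and none was lower, beside 8.92% and 10.3% of all genes. In fibroblasts, beside 12.1% of all genes higher and 13.7% lower, 2 of 12 were higher, Irf1 and Dpp4, which encodes a peptidase that trims these chemokines (1 and 33 UMIs), and Adam10 was lower, at 74.4 and 29.5 CPM (-1.34). In monocyte/macrophage cells 2 of 14 were higher beside 7.83% of all genes, Irf1 and Ifng, the latter from 0 and 79 UMIs or 2.31 CPM. Ifng thus met the minimum of 10 UMIs through TAK-931 alone in these cells, and its call rests on the floor set for vehicle. Adam10 and Adam17, whose products release CXCL16, were at -0.59 and 0.35 on the log2 scale there, both within 2-fold. In mural cells 2 of 10 were higher, Irf1 and the NF-κB subunit gene Rela, and Jak2 was lower, beside 19.7% and 7.96% of all genes. Rela there rests on 6 and 25 UMIs, and the interval of its log2 ratio of 1.25 (-0.07 to 2.83) includes no difference. Jak2 rests on 22 and 19 UMIs. In J558 cells 1 of 12, Jak1 (42 and 11 UMIs), was higher beside 9.59%. The counts in fibroblast, monocyte/macrophage, mural, J558 and T cells were thus near those over all genes. The median log2 ratio over the list was between -0.35 in endothelial and 0.48 in mural cells, against -0.14 and 0.15 over all genes counted in these types.

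The genes most like each member in their levels over 9 cell types of TAK-931 (Pearson's r over log2 CPM, 12197 genes) are given as a description, since the types share a library. For Cxcl9 they were Abca1, Myof, Sash1, Rab11fip5 and App (r 0.98 to 0.99), and for Cxcl10 Cnn3, F830016B08Rik, Ttc12, Ppp1r37 and Hbegf. For Cxcl16 they included Mdm2, Mafg, Dnase1l1 and Eps8 (r 0.95 to 0.98). Cxcr3 was nearest to Sntb1, Fam169b, Sit1, Churc1 and Sytl1, and Cxcr6 to Perp, Gm17745, Trbc2, Cd3d and Mt3, of which Trbc2 and Cd3d were used to gate T cells. Cxcl9 and Cxcl10 had r 0.96 with each other, and Cxcr3 and Cxcr6 0.64.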

How the data were processed

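Tumours of 1 vehicle and 1 TAK-931 mouse were compared. The authors deposited raw UMI counts per gene and barcode, made with Cell Ranger 6.0.0 against mm10 per the submitters' processing notes and not normalized; the published methods name a human build, but the features carry mouse identifiers. Depth was 144767193 UMIs in vehicle and 77369283 in TAK-931. The methods' limits, over 2000 genes and under 15% mitochondrial UMIs, left 3441 and 3488 cells.

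The 5 genes and all gene lists were chosen with earlier results of these data known. Cells were gated on 13 marker lists, none holding a member: a marker was positive at 1 UMI per 10000 or more, and a cell took the list with the largest positive share, given at least 3 positive markers. T cells were split by Cd8a or Cd8b1, Cd4 and Foxp3. Cells with 3 positive markers in 2 compartments were set aside as mixed, and no doublet caller was run. Counts were summed per library and type and given as CPM. With 1 library per group no count model or test was run; a gene was called at a 2-fold difference with 10 or more UMIs in both sums together. Intervals (95%) were exact Poisson for levels, exact binomial (Clopper-Pearson) for shares, conditional binomial for ratios and Newcombe for differences of shares. PCR and capture make UMIs imperfectly independent, so intervals and floors cover counting error only. A count of 0 was set to a floor of 3 UMIs. Shares of positive cells were taken after thinning each cell to 4000 UMIs, and no kept cell was too shallow. Free RNA was the median, over markers of other compartments, of the level in a type relative to its library. The named genes were the 5 members, the pathway list, and per member the 5 genes with the highest Pearson's r of log2(CPM + 5) over TAK-931 types of 30 or more cells, among genes with at least 100 UMIs. Leiden clusters served as an alternative to the gates. Motifs were searched in RefSeq windows of 250 bases before each start. Computation used Python 3.11.15, numpy 2.4.6, scipy 1.17.1, pandas 2.3.3, scanpy 1.11.5, anndata 0.12.19, leidenalg 0.10.2 and matplotlib 3.10.9, and the interval and call code was tested on simulated data. Cxcl11 was not analysed here, and some genes of these lists are not reported here. Barcodes with over 500 and at most 2000 genes entered only the alternatives and the closing values.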

Additional observations from a re-analysis of the deposited data

Results flagged for a closer look

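The Cxcl16 ratio between the libraries had opposite signs in different cell types. On the log2 scale, TAK-931 over vehicle, it was at 3.29 in J558 cells, 1.71 in endothelial cells and 2.13 in mural cells, and -0.70 in fibroblasts and -0.12 in monocyte/macrophage cells. The fibroblast value was 0.87 when cells were assigned by cluster. With 1 library per group this difference between cell types was not tested. The J558 level in TAK-931, 4.84 CPM, was near the 4.35 CPM estimated for free RNA, the endothelial level of 9.04 CPM (5.85 to 13.4) was above its estimate of 4.11 CPM, and the mural ratio rests on 3 and 23 UMIs.

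The remaining values come from shallow barcodes (genes over 500, at most 2000) that entered no value above except those given for barcodes with over 500 genes: 722 in vehicle and 1147 in TAK-931. In monocyte/macrophage barcodes of this set Cxcl9 was at 289 CPM in vehicle and 851 CPM in TAK-931, and Cxcl10 at 115 and 487 CPM. In vehicle 1 barcode held 52 of the 113 Cxcl9 UMIs and 1 held 20 of the 45 Cxcl10 UMIs, and in TAK-931 the top barcodes held 116 of 1031 and 60 of 590. In neutrophil barcodes Cxcl10 was at 21.0 CPM (1 UMI, 27 barcodes) in vehicle and 303 CPM (47 UMIs, 55 barcodes) in TAK-931, with 17 of the 47 UMIs in 1 barcode. In T cell barcodes left unassigned between CD4 and CD8, Cxcl10 was at 15.6 CPM in vehicle and 331 CPM in TAK-931, and over all T cell barcodes at 7.23 and 105 CPM. Both T cell values rest on 1 barcode, which held 122 of the 135 Cxcl10 UMIs of the unassigned T cell barcodes.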

How the results depend on the processing

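No paired analysis was possible because each group has 1 library and the sample titles carry no replicate numbers; for the same reason no replicate could be left out. Of the recomputed main values, 109 moved by less than their counting interval (or, for counts of genes, by under 1.5 times) and 43 by more, none of these with a change of sign. Of the other recomputed values 172 moved by less, 39 by more, and 1, Cxcl9 in J558 cells, took a negative sign because its subtraction left no UMIs in TAK-931; the uncalled Cxcl16 ratio of fibroblasts also changed sign. Leaving out the top cell of each library (also per C1q class), restricting endothelial cells to those without C1q or Ptprc UMIs and pooling T cells were chosen after seeing the data, and the causes of the shifts were not tested.

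The endothelial log2 ratio of Cxcl9 (2.27) was 2.39 with markers positive at any UMI, 2.59 with mixed cells kept, 1.97 from the mean of each cell's CPM, 2.52 scaled by the median ratio, 2.75 without C1q or Ptprc UMIs and 2.59 without the top cell. That of Cxcl10 (1.86) was 1.69 at any UMI, 2.27 with mixed cells, 2.03 by Leiden cluster, 2.12 scaled by the median ratio, 2.06 without C1q or Ptprc UMIs and 2.06 without the top cell. In monocyte/macrophage cells Cxcl9 (0.42) was 0.54 at any UMI, 0.30 from cell means, 0.52 scaled by the median ratio and 0.55 without the top cell. Their Cxcl10 (1.07) was 1.27 from cell means and 1.42 without the top cell, and under 2-fold in 3 of 13 alternatives. Their Cxcl16 (-0.12) was -0.038 by cluster and -0.019 scaled by the median ratio.

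The share of Cxcl9 UMIs held by monocyte/macrophage cells (55.5%) was 59.3% at a 10% mitochondrial limit, 54.7% with none, 51.3% at any UMI, 58.6% with mixed cells and 59.1% by cluster. For Cxcl16 (88.1%) it was 80.5%, 92.3% and 93.2% under the last 3 settings. The share of Cxcr6 UMIs in CD8 T cells (75.6%) was 58.7%, 81.6% and 79.1% under these, and 77.9% at 2 UMIs per 10000. Thinning to 2000 UMIs, or not thinning, gave 81.2% and 98.1% of endothelial cells with Cxcl9 (88.3%), 36.9% and 63.6% of monocyte/macrophage cells with Cxcl9 (45.4%), and 42.7% and 80% of CD8 T cells with Cxcr6 (58.7%).

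Genes at least 2-fold higher in endothelial cells numbered 977, or 347 with a minimum of 50 UMIs, and lower ones 1131, or 599 with that minimum and 725 scaled by the median ratio. In monocyte/macrophage cells 1188 were lower, or 732 with a minimum of 50 UMIs and 1810 with 1 UMI. With free RNA subtracted, the ratio of Cxcl9 in J558 cells went from 2.94 to -2.47, a value set by the 0.5 UMI added to each sum: the TAK-931 level of 5.70 CPM was not above its free RNA estimate of 7.68 CPM, so no direction is shown. Fibroblast Cxcl16 ranged from -0.94 to 0.87 over 12 alternatives, and mural Cxcl9 from 0.74 to 4.15. The receptors rest on 17 Cxcr3 and 43 Cxcr6 UMIs in vehicle, where 13 T cells were kept.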

Other observations

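Among barcodes with over 500 and at most 2000 genes, Cxcr6 in CD8 T cell barcodes was at 363 CPM in vehicle (19 UMIs, 13 barcodes) and 237 CPM in TAK-931. Over all T cell barcodes of this set Cxcr6 was at 202 and 164 CPM. Cxcr3 was at 43.4 CPM in vehicle (6 UMIs, 15.9 to 94.4) and 96.3 CPM in TAK-931 (137 UMIs, 80.8 to 114). Unlike in the T cells kept, this Cxcr3 difference was over 2-fold, but the intervals overlapped. These shallow barcodes thus held both receptors in each library. With the low-gene barcodes added, neutrophils had Cxcl10 at 21.0 CPM in vehicle (1 UMI, 27 barcodes) and 830 CPM in TAK-931 (159 UMIs, 58 barcodes), and only 3 of these 58 had passed the limit of 2000 genes. Of the 159 UMIs, 111 were in 1 of these 3 cells, and the 55 low-gene barcodes alone were at 303 CPM (47 UMIs).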
